A study of Homo sapiens with 12 samples.

Results

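A set of 10 genes tied to the neural crest and to stem cells was followed through the treatment of melanoma cells with MAPK pathway inhibitors (MAPKi) and through the days after the drugs were removed. These were SOX2, SOX4, SOX9, TFAP2A, RXRG, NGFR, GFRA2, AQP1, L1CAM and NES, 10 of the 44659 genes in the count table. They were chosen by name, with results of these data in view, because SOX2 was strongly higher under drug. The difference between treated and control cells is therefore given as a description, with no test, for every one of them. All 10 had at least 1 count, and 9 passed the filter on low counts (a mean scaled count of at least 10 over all libraries). GFRA2 did not.

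The cells were A375, an established human melanoma line from ATCC, and RNA-seq was run on 12 libraries in 4 groups of 3. DMSO alone was given for 72 h to control cells (CC). In treated cells (TC) BRAF was blocked with vemurafenib and MEK with cobimetinib, each at 500 nM and over the same 72 h. Persister cells (PC) had the same 72 h of both drugs and then 2 days in drug-free medium, and recovered cells (RC) had the same and then 9 days without drug. All cells shared the medium with serum, and cells were passed when needed during recovery. The DMSO control was harvested only at the end of the 72 h, so that the day of harvest and the group cannot be told apart for PC and RC. Nothing in the labels says that the replicates were separate cultures, so p-values measure the spread between these libraries only. The RNA was cytoplasmic per the labels, and total counts ran from 37773389 to 55567097 per library.

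The neural crest is an embryonic cell population that leaves the forming neural tube and gives rise to melanocytes, to Schwann cells and other glia, and to parts of the peripheral nervous system. Melanocytes and melanoma cells keep part of that programme. Melanoma cells under MAPK pathway inhibition are known to be able to lose differentiated features and to gain expression of crest and glial genes, with NGFR, the low-affinity neurotrophin receptor also called CD271, as a widely used marker. SOX2 is a transcription factor of neural and pluripotent stem cells, and RXRG, a nuclear receptor for retinoids, is also used as a marker of a crest-like melanoma state.

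The upstream sequences of the 4 transcription factor genes with the widest moves that had a RefSeq window are shown here, so that the genes that rose and the gene that fell can be compared side by side. RefSeq windows (GRCh38.p14) were matched by symbol for 7 of the 10 genes, giving 9 windows. Each line holds the 250 bases before a transcription start, written 5′ to 3′ on the strand of the gene. SOX2 lies on the plus strand, with the window at chr3:181711675-181711924. The SOX4 window is chr6:21593501-21593750 on the plus strand. TFAP2A, on the minus strand, had windows for 2 starts, at chr6:10419660-10419909 and chr6:10412392-10412641. The RXRG window is chr1:165445127-165445376 on the minus strand. Capitals mark matches, on either strand, to AGGTCA, the hexamer that nuclear receptors bind, or to GCCNNNGGC, the AP-2 motif bound by the TFAP2 proteins.
SOX2: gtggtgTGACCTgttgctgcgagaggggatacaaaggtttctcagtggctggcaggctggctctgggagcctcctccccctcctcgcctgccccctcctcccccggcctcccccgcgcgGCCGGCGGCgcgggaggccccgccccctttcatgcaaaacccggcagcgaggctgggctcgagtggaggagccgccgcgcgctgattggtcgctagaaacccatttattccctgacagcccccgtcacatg
SOX4: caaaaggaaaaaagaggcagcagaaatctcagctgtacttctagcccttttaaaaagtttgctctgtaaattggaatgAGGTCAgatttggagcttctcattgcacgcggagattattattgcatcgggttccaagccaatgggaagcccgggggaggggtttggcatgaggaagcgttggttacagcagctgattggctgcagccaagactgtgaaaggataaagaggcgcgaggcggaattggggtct
TFAP2A, first start: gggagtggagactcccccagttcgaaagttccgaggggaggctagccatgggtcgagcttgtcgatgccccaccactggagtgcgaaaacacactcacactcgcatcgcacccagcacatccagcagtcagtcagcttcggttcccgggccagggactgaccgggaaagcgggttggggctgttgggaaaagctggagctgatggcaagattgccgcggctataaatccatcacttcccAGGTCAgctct
TFAP2A, second start: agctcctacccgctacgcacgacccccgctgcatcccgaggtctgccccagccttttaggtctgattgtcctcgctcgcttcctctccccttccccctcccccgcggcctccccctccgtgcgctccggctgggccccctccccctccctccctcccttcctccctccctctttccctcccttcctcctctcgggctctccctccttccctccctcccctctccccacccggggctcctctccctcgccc
RXRG: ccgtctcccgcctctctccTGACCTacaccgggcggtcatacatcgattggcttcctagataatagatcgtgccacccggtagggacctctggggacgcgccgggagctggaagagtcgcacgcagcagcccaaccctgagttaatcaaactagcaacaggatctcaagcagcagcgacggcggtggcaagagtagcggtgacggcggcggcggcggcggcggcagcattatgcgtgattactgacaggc
The AGGTCA hexamer stood in 5 of the 9 windows (SOX2, SOX4, the first TFAP2A start, RXRG and NES), against 12.1% of the 35116 windows in the table. It was present in windows of genes that rose and in that of RXRG, which fell. The AP-2 motif stood in 1 of the 9 windows, that of SOX2, against 19.8% of all windows. The SOX motifs AACAAAG and AACAATG, the E-box CACGTG and the AP-1 motif TGANTCA were found in 0 of the 9 windows, against 4.5%, 2.87%, 6.34% and 6.57% of all windows. A match is a string of letters and not a measured site.

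SOX2 was close to absent in control cells and well expressed under drug, ranking 13997 per exon length in CC and 1531 in TC among the 27026 genes with a matched exon length. Its level in CPM (counts scaled to library size) was 0.148, 0.316 and 0.106 in the CC libraries, which rested on 6, 14 and 5 reads. It was 63.3, 76.8 and 77.2 CPM in TC, 94.4, 102.5 and 118.7 CPM in PC, and 3.20, 3.56 and 3.31 CPM in RC. The 4 groups did not overlap, with PC highest, then TC, then RC, then CC. The fitted log2 fold change was 8.56 ± 0.21 (SE) for TC against CC and 9.10 ± 0.21 for PC against CC. In a bulk culture, more cells with the transcript and more transcript per cell cannot be told apart.

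SOX2 was the gene that chose the set, so a test is given only between the groups after drug removal. From PC to RC, which shares no library with the comparison of treated and control cells, SOX2 fell by 4.97 in log2 units, with an SE of 0.15 (edgeR quasi-likelihood test, adjusted p = 1.48e-10). RC held 3.19% of the PC level. The RC level was 17.5 times that of CC (log2 fold change 4.13 ± 0.25), and the PC level differed from that of TC by a log2 fold change of 0.54 ± 0.12. Both are descriptions with no test, since they reuse the CC or TC libraries that chose SOX2. For the other genes, the tests below of PC or RC against CC and of PC against TC reuse these libraries as well. Those p-values are therefore not independent of the choice of the set, and only the comparison of RC with PC shares no library with it.

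SOX4, a factor of progenitor cells in many tissues, rose and returned below its starting level. Its level was 51.7, 58.8 and 43.3 CPM in CC, 329, 306 and 288 CPM in TC, 391, 364 and 330 CPM in PC, and 39.7, 37.6 and 40.2 CPM in RC. TC and PC stood apart from CC and RC, and every PC library was above every TC library, by little. TC differed from CC by a log2 fold change of 2.59 ± 0.11. It was 2.82 ± 0.11 for PC against CC (adjusted p = 6.91e-10). SOX4 then fell by 3.21 from PC to RC (adjusted p = 3.32e-10) and was 0.39 ± 0.10 lower in RC than in CC (adjusted p = 0.0118). That last call was lost without the second RC library (adjusted p = 0.0526). PC and TC were not called different (log2 fold change 0.23, 95% interval 0.01 to 0.45, adjusted p = 0.120).

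SOX9, a factor of crest cells and of cartilage and glia, was the most even of the 9. It measured 258, 269 and 351 CPM in CC, 303, 350 and 362 CPM in TC, 297, 296 and 321 CPM in PC and 400.5, 401 and 388 CPM in RC. The CC, TC and PC libraries overlapped, and the RC libraries stood above them all. The log2 fold change was 0.21 ± 0.11 for TC against CC and 0.06 ± 0.11 for PC against CC (adjusted p = 0.646). Without the third CC library, the highest of the 3, PC was called higher than CC (log2 fold change 0.22, adjusted p = 0.0236). RC exceeded CC by 0.44 ± 0.11 (adjusted p = 0.00725) and PC by 0.38 ± 0.11 (adjusted p = 0.00692), both under 1.5-fold.

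TFAP2A encodes the AP-2 alpha factor, which specifies crest and melanocyte fates. It was 26.8, 25.9 and 25.8 CPM in CC, 229, 187 and 162 CPM in TC, 197, 174 and 144 CPM in PC and 21.8, 19.4 and 22.5 CPM in RC. TC and PC overlapped each other and lay far above CC and RC. TFAP2A had a log2 fold change of 2.88 ± 0.14 for TC against CC, and of 2.71 ± 0.14 for PC against CC (adjusted p = 6.48e-09). TFAP2A fell by 3.01 from PC to RC (SE 0.14, adjusted p = 2.82e-09). The RC libraries lay below the CC libraries, but the difference was not called (log2 fold change -0.30, 95% interval -0.59 to -0.01, adjusted p = 0.0982). With only the RC and CC libraries in the fit it was called (adjusted p = 0.0393), and over the other alternatives without a fold threshold it was not (adjusted p from 0.0548 to 0.284).

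RXRG, the retinoid receptor gene, was lower under drug. The RXRG libraries held 208, 202 and 198 CPM in CC, 10.6, 7.77 and 7.16 CPM in TC, 5.05, 5.39 and 3.33 CPM in PC, and 146, 147 and 156 CPM in RC. No 2 groups overlapped. For RXRG the log2 fold change was -4.58 ± 0.17 for TC against CC and -5.46 ± 0.18 for PC against CC (adjusted p = 1.99e-10). From TC to PC RXRG fell by 0.89 (SE 0.17, adjusted p = 0.00257), and from PC to RC it rose by 5.02 (SE 0.17, adjusted p = 3.35e-10). It was 0.44 ± 0.14 lower in RC than in CC (adjusted p = 0.0284), and that call was lost on leaving out the first CC library or any of the 3 RC libraries (adjusted p from 0.0595 to 0.0884).

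NGFR had the widest range of the 10 genes. It was 5.68, 4.52 and 3.41 CPM in CC, and 3572, 4619 and 5205 CPM in TC. In PC it reached 6002, 6256 and 6673 CPM, and in RC it was 21.9, 18.9 and 15.3 CPM. Per exon length it ranked 10198 of 27026 genes in CC, 8 in TC, 5 in PC and 6767 in RC. For NGFR the log2 fold change was 9.95 ± 0.24 for TC against CC and 10.45 ± 0.25 for PC against CC (adjusted p = 2.43e-11). NGFR fell by 8.40 from PC to RC (SE 0.23, adjusted p = 7.12e-11) and was still 4.14-fold higher in RC than in CC (log2 fold change 2.05 ± 0.19, adjusted p = 2.93e-05). Every PC library was above every TC library (log2 fold change 0.50 ± 0.16, adjusted p = 0.0430). That call was lost without any 1 of 5 of the 6 libraries compared, the exception being the third TC library (adjusted p from 0.0250 to 0.138 over the 6). It was also lost with a filter of at least 2 summed counts (adjusted p = 0.0581) and with the replicate number as a block (adjusted p = 0.0638).

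GFRA2, the receptor that binds neurturin and signals through RET, was barely counted. It had 0 reads in each CC and RC library, 3, 1 and 0 reads in TC, and 3, 4 and 7 reads in PC. All 3 PC libraries had reads and none of the CC libraries did, but a count of 0 allows up to 3 reads in a library, and only 2 of the PC libraries exceeded that. No fold change is given. This limit covers counting error only.

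AQP1, a water channel of crest derivatives and red cells, was low throughout. Its levels were 0.197, 0.248 and 0.254 CPM in CC, 3.21, 4.83 and 7.07 CPM in TC, 2.28, 2.54 and 2.29 CPM in PC, and 0.295, 0.303 and 0.303 CPM in RC. All TC libraries were above all PC libraries, which were above all RC libraries. The log2 fold change was 4.41 ± 0.29 for TC against CC, with 8, 11 and 12 reads behind the CC values, and 3.32 ± 0.29 for PC against CC (adjusted p = 5.97e-07). AQP1 fell by 1.09 from TC to PC (SE 0.24, adjusted p = 0.00655) and by 2.97 from PC to RC (SE 0.28, adjusted p = 1.12e-06). RC and CC were not called different (log2 fold change 0.36, 95% interval -0.31 to 1.02, adjusted p = 0.411).

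L1CAM, a neural cell adhesion molecule, rose in steps. It was 82.4, 68.3 and 76.9 CPM in CC, 138, 167 and 204 CPM in TC, 311, 319 and 315 CPM in PC, and 81.9, 74.8 and 67.9 CPM in RC. CC and RC overlapped, TC lay above both, and PC above TC. L1CAM had a log2 fold change of 1.16 ± 0.13 for TC against CC, 2.05 ± 0.13 for PC against CC (adjusted p = 3.36e-08) and 0.89 ± 0.12 for PC against TC (adjusted p = 0.000303). It fell by 2.07 from PC to RC (SE 0.13, adjusted p = 2.83e-08). RC and CC differed by -0.02 in log2 (95% interval -0.29 to 0.25, adjusted p = 0.923).

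NES encodes nestin, an intermediate filament of neural progenitors. It was 530, 563 and 643 CPM in CC, 602, 775 and 971 CPM in TC, 220, 264 and 231 CPM in PC, and 645, 636 and 532 CPM in RC. TC overlapped CC, and PC lay below every other group. NES had a log2 fold change of 0.44 ± 0.15 for TC against CC. It was -1.28 ± 0.15 for PC against CC (adjusted p = 1.01e-05) and -1.71 ± 0.15 for PC against TC (adjusted p = 1.24e-05). NES rose by 1.34 from PC to RC (SE 0.15, adjusted p = 6.47e-06), and RC was not called different from CC (log2 fold change 0.06, 95% interval -0.26 to 0.39, adjusted p = 0.774).

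**Figure D1:**
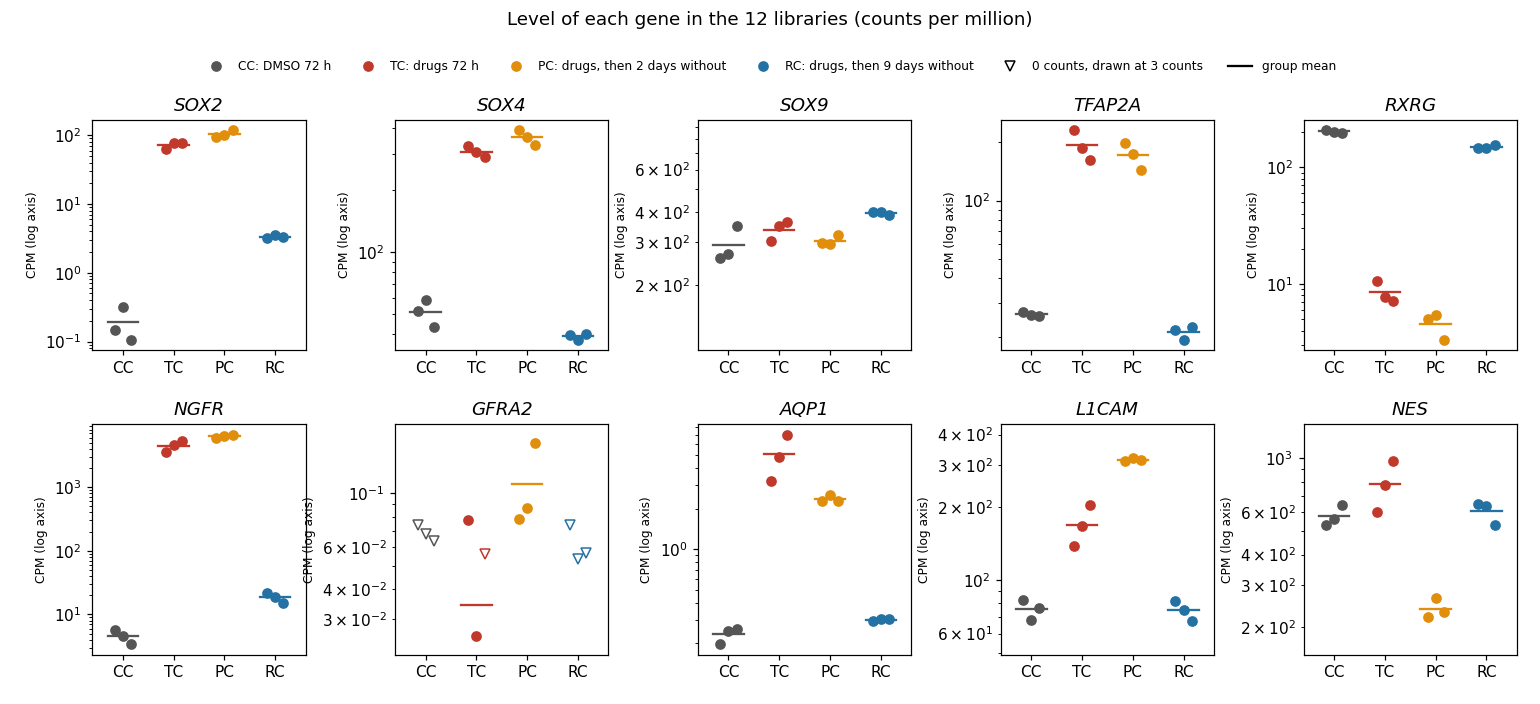
Level of each of the 10 genes in CPM on a log axis, with 1 point per library, a line at the group mean, and open triangles for 0 counts drawn at the 3-count limit. SOX2 and NGFR in PC and TC sit above RC and CC, RXRG shows the opposite order, and NES is lowest in PC.

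In TC against CC, the comparison that chose the genes, the fitted log2 fold change was above 0 for 8 of the 9 and below 0 for RXRG, a description with no calls. In that comparison 33.2% of all 15916 tested genes were called higher and 34.7% lower, and 35.4% changed beyond 1.5-fold, and nothing is read from these shares for the 9. The counts of calls below include SOX2, whose values against CC and TC are descriptions. SOX2 is among the genes counted as higher for PC against CC, from TC to PC and for RC against CC. No test is given for it in those comparisons. The counts are set beside the shares of all tested genes called at an adjusted p under 0.05. For PC against CC the counts were 6 higher and 2 lower (33.2% and 35.9% of all genes), with 8 beyond 1.5-fold (37.1%). From TC to PC, 3 were higher, 3 lower and 3 not called (12.2% and 12.5% of all genes higher and lower), with NES alone beyond 1.5-fold (3.48%). From PC to RC, 3 were higher and 6 lower (35.7% and 34.2%), and 8 changed beyond 1.5-fold (38.7%), with SOX9 the exception. In RC against CC, 3 were higher, SOX2, NGFR and SOX9, and 2 lower, SOX4 and RXRG (18.2% and 19.1%), with 2 beyond 1.5-fold, SOX2 and NGFR (3.87%). The median log2 fold change of the 9 was -2.97 for RC against PC, where the median of all tested genes was 0.01. For TC against CC it was 2.59, with -0.02 for all tested genes. That pair reuses the comparison that chose the genes, and nothing is read from it.

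**Figure D2:**
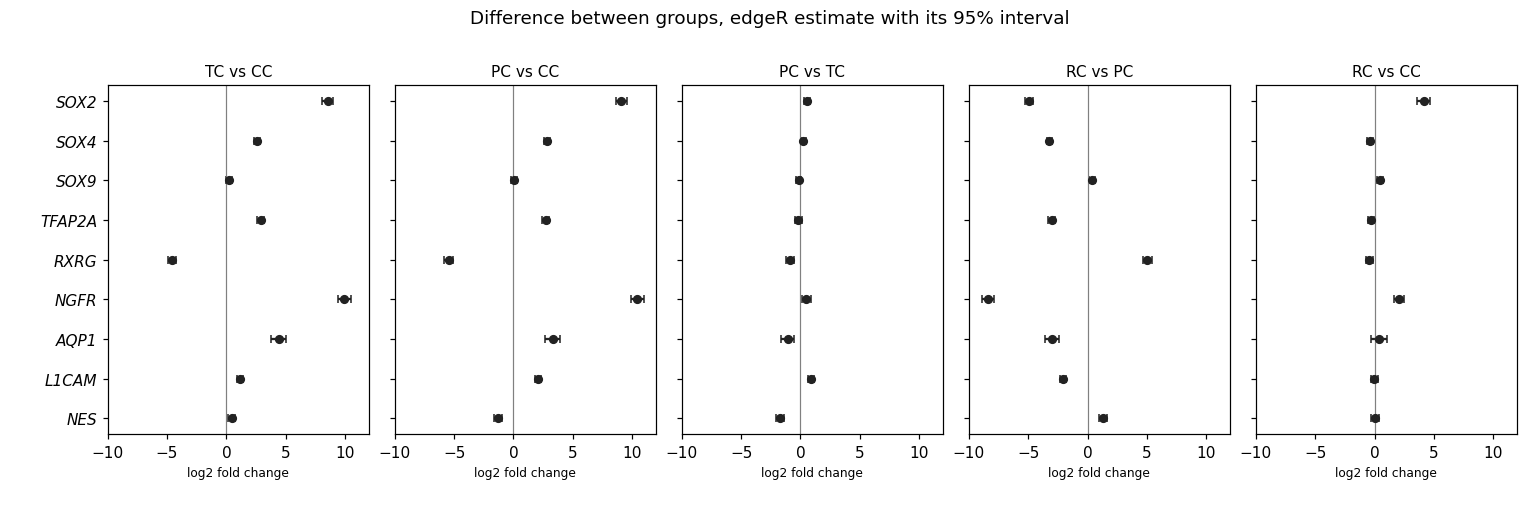
Fitted log2 fold change of the 9 tested genes in 5 comparisons, with 95% intervals. In RC against CC only SOX2 at 4.13 and NGFR at 2.05 lie far from 0, and RXRG, NES and SOX9 lie above 0 and the other 6 genes below 0 in RC against PC.

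On a scale that divides CPM by the kb of exon, the order of the genes changed with treatment. In CC the order was NES (104 CPM per kb), RXRG (75.3), SOX9 (74.4), SOX4 (10.5), L1CAM (10.4), TFAP2A (3.18), NGFR (1.09), SOX2 (0.0757) and AQP1 (0.0715). RXRG and SOX9 overlapped, as did SOX4 and L1CAM, and SOX2 and AQP1. In TC NGFR led at 1078 CPM per kb, followed by NES at 141, SOX9 at 86.2, SOX4 at 63.2 and SOX2 at 28.8. SOX2 overlapped TFAP2A there, and RXRG had dropped to 3.17. In PC NGFR stood at 1524 CPM per kb and SOX9, SOX4, L1CAM, NES and SOX2 lay between 77.5 and 41.9, with SOX9 and SOX4 overlapping and L1CAM, NES and SOX2 overlapping in turn. In RC NES (109) and SOX9 (101), which overlapped, again stood with RXRG (55.5) at the top, and SOX2 was at 1.34.

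**Figure D3:**
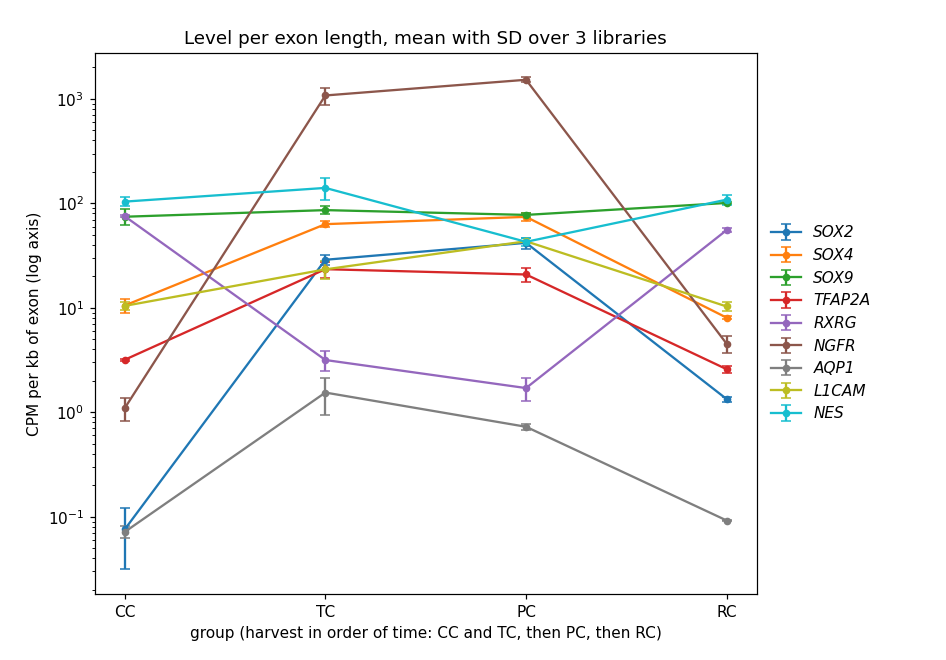
Mean level per kb of exon, with SD over 3 libraries, of the 9 tested genes in CC, TC, PC and RC on a log axis. NGFR passes from 1.09 to 1524 between CC and PC, and RXRG from 75.3 to 1.71.

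Several of the genes share their locus with other transcripts, and strand-specific counting is not stated. SOX2 (GRCh38, chromosome 3, 181711925 to 181714436, 1 exon) lies inside the gene body of SOX2-OT, a long noncoding RNA on the same strand, with 0 exon bases shared. SOX2-OT was at 0.248 ± 0.181 CPM (SD, n = 3) in CC, 0.439 ± 0.0714 in TC and 0.626 ± 0.0251 in PC. For SOX2-OT the log2 fold change was 0.80 in TC against CC (adjusted p = 0.171) and 1.30 in PC against CC (adjusted p = 0.0305). TFAP2A (chromosome 6, 10393186 to 10419659, minus strand) shares 438 exon bases, 5.33% of its own, with TFAP2A-AS1 and 941, 11.4%, with TFAP2A-AS2, both on the opposite strand. TFAP2A-AS1 rose from 0.750 ± 0.192 to 6.77 ± 1.43 CPM in TC (log2 fold change 3.17, adjusted p = 5.49e-07), and TFAP2A-AS2 was not called there (-0.48, adjusted p = 0.201). Without strand, reads of TFAP2A and of its antisense partners in the shared exons cannot be told apart. TFAP2A-AS1 has 1692 exon bases and TFAP2A 8220, so the 438 shared bases are a larger part of TFAP2A-AS1. The rise of TFAP2A-AS1 may thus include reads of TFAP2A, which was not tested. SOX9 lies within SOX9-AS1, on the opposite strand and with 0 exon bases shared, and SOX9-AS1 was not called in any of the 5 comparisons (0.08 in TC against CC, adjusted p = 0.838). CASC15, a noncoding RNA beside SOX4 on chromosome 6, rose from 2.12 ± 0.315 to 9.43 ± 0.393 CPM in TC (adjusted p = 1.12e-05). NGFR-AS1 was not analysed here.

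Relatives in the same families moved in both directions. In this and the next paragraphs, the genes named from lists of related genes were picked as the largest called rises and falls in TC against CC. Their adjusted p-values in that comparison were under 0.05 by that rule and are no independent support. In TC against CC, where 33.2% of all genes were called higher and 34.7% lower and the median over all genes was -0.02, 17 further SOX genes were listed and 9 of them tested, with 5 higher and 2 lower (list median 0.22). SOX13 rose from 28.6 ± 4.10 to 58.8 ± 6.69 CPM (adjusted p = 3.45e-06) and SOX15 from 1.70 ± 1.25 to 3.89 ± 0.517 CPM (adjusted p = 0.0188). SOX8, a crest and glial factor, fell from 16.3 ± 11.2 to 3.68 ± 0.450 CPM (adjusted p = 0.000233), with CC libraries spread between 8.22 and 29.0 CPM. SOX8 was still lower in RC than in CC (log2 fold change -1.53, adjusted p = 0.00588). Among TFAP2 genes and their partners, 3 of 9 tested genes rose and 4 fell (list median 0.11). TFAP2B fell from 79.2 ± 8.49 to 2.89 ± 0.783 CPM (log2 fold change -4.79, adjusted p = 4.09e-10) and TFAP2C from 53.2 ± 7.35 to 9.29 ± 0.779 CPM (-2.52, adjusted p = 2.66e-09), both opposite in sign to TFAP2A. CITED1, a coactivator that binds AP-2 proteins, rose from 87.9 ± 15.0 to 288 ± 41.7 CPM (adjusted p = 1.08e-06) and stood at 26.3 ± 1.58 CPM in RC, below CC (adjusted p = 2.67e-05). CITED2, of the same family, rose by 0.48 in log2 (adjusted p = 0.000237).

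Retinoid receptor and enzyme genes split as well, with 7 of 11 tested higher and 2 lower in TC (list median 0.61). RXRA, a partner receptor of the same class as RXRG, rose from 23.2 ± 1.67 to 139.9 ± 25.5 CPM (log2 fold change 2.59, adjusted p = 2.32e-09), and in RC it stood at 24.3 ± 1.60 CPM. CYP26B1, which clears retinoic acid, rose by 2.45 (adjusted p = 3.61e-08). ALDH1A1, which makes retinoic acid, fell from 8.88 ± 1.77 to 0.342 ± 0.0818 CPM (adjusted p = 3.96e-09), and in RC it was not called different from CC (log2 fold change -0.15, adjusted p = 0.550). ALDH1A3, an enzyme of the same step, fell from 341 ± 54.6 to 27.8 ± 0.634 CPM (adjusted p = 1.28e-10) and was at 113 ± 7.91 CPM in RC, still below CC (adjusted p = 2.25e-06).

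**Figure D4:**
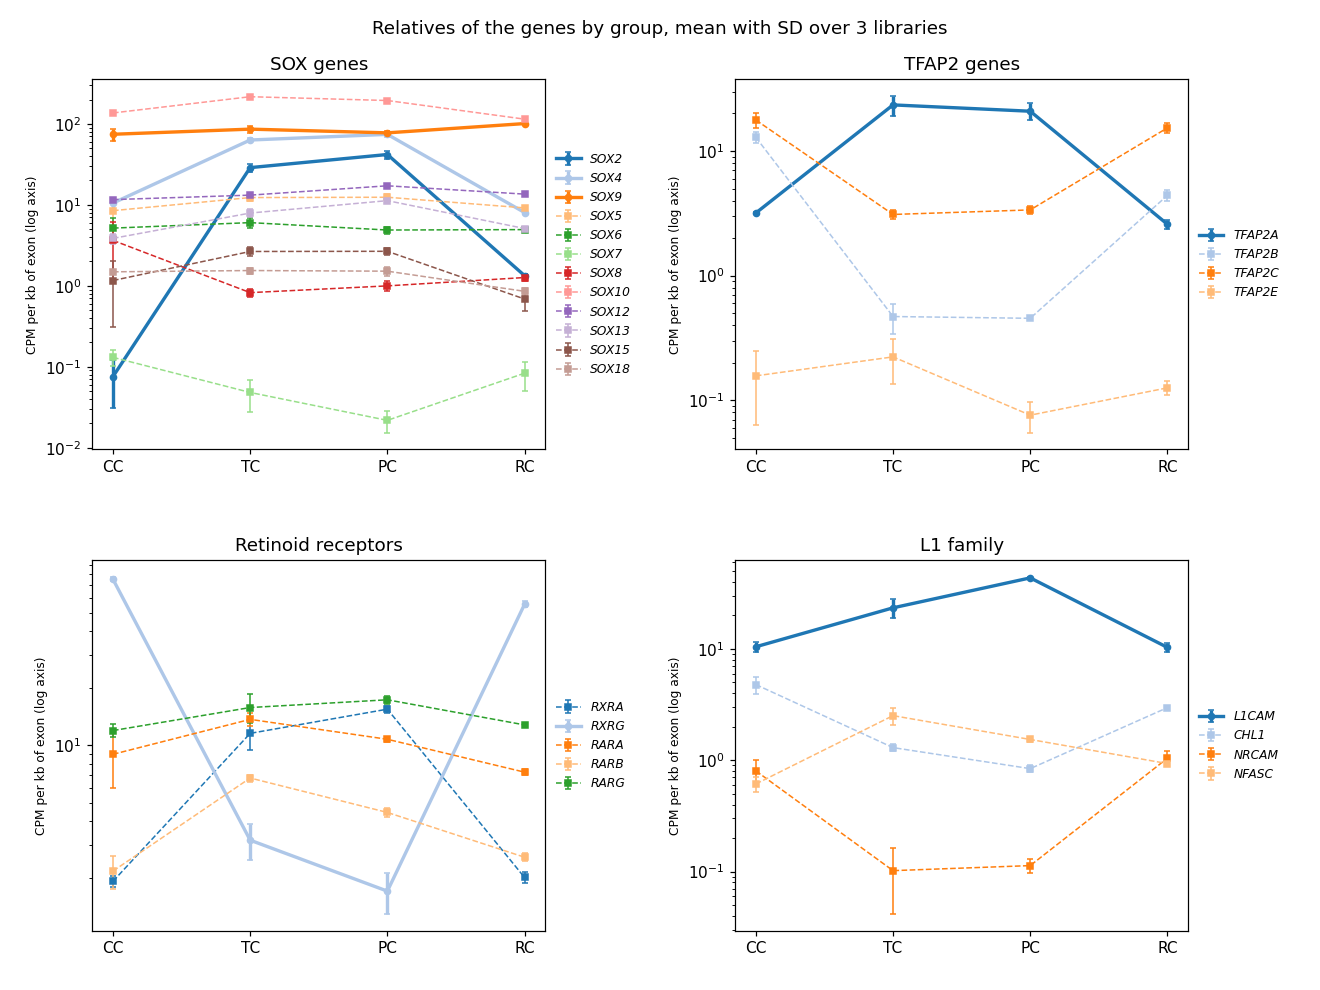
Mean level per kb of exon, with SD over 3 libraries, of SOX, TFAP2, retinoid receptor and L1 family genes that were tested, on log axes, with the genes of the set in solid lines. TFAP2A and TFAP2B run in opposite directions in TC, as do RXRA and RXRG.

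Of 21 tested genes of neural crest specification, 9 were higher and 10 lower in TC (list median 0.30), and 9 were higher and 8 lower in RC against PC. DLX5, a factor of the neural plate border, rose from 1.82 ± 0.966 to 72.7 ± 9.04 CPM (adjusted p = 3.22e-09), and FOXD3, which marks premigratory crest, from 24.5 ± 1.68 to 119.5 ± 12.5 CPM (adjusted p = 1.17e-09). GBX2 fell from 2.35 ± 0.462 to 0.249 ± 0.124 CPM (adjusted p = 1.47e-05). Schwann cell and glial genes had 10 higher and 7 lower of 20 tested (list median 0.66). SLITRK6 rose from 0.464 ± 0.0538 to 50.6 ± 8.94 CPM (adjusted p = 1.99e-10), and PMP22, a myelin protein gene, from 236 ± 20.6 to 2090.3 ± 416 CPM (adjusted p = 1.50e-09). FABP7, a fatty acid binding protein of glia, fell from 61.5 ± 2.31 to 2.48 ± 0.232 CPM (adjusted p = 5.26e-12), and ATP1B2 from 17.7 ± 6.53 to 2.24 ± 0.414 CPM (adjusted p = 5.83e-06). In RC, SLITRK6 was not called different from CC (adjusted p = 0.356), while ATP1B2 was lower than in CC by 3.01 in log2 (adjusted p = 6.02e-05).

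Of 14 tested genes on the stem cell list, 3 were higher and 8 lower in TC (list median -0.58). ABCB5, a transporter used as a melanoma stem cell marker, rose from 0.660 ± 0.0826 to 29.1 ± 14.3 CPM (adjusted p = 1.21e-06), and BMI1, a polycomb gene, was higher by 0.81 in log2 (adjusted p = 0.00785). TERT, the telomerase subunit, fell from 2.33 ± 0.918 to 0.0233 ± 0.0259 CPM (adjusted p = 7.79e-07). Summed over the libraries of a group, TERT had 3 reads in TC, 314 in CC and 399 in RC. It passed the filter through CC and RC, so the direction of its call follows in part from the filter. ALDH1A1, given above, is also on this list. The pluripotency genes POU5F1, NANOG, LIN28A and SALL4 did not pass the filter.

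Around the receptors, neurotrophin signalling had 4 higher and 2 lower of 7 tested genes in TC (list median 0.33), and the GDNF family had 1 higher and 3 lower of 7 (list median -0.90). BDNF, a neurotrophin, rose from 2.16 ± 0.421 to 7.92 ± 0.641 CPM (adjusted p = 3.15e-06). Its receptor gene NTRK2 rose from 0.265 ± 0.0357 to 1.04 ± 0.329 CPM in TC (adjusted p = 0.000216) and reached 4.34 ± 0.312 CPM in PC (adjusted p = 5.28e-07). RTN4R and LINGO1, whose products form a receptor complex with NGFR, fell by 2.00 (adjusted p = 3.72e-06) and 1.01 (adjusted p = 0.000170) in log2. GFRA1, the GDNF receptor gene, fell from 7.03 ± 0.989 to 0.969 ± 0.0720 CPM (adjusted p = 1.14e-07), and SDC3, a syndecan, from 1265 ± 65.6 to 596 ± 59.0 CPM (adjusted p = 2.86e-07).

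L1 family and neural adhesion genes had 5 higher and 5 lower of 10 in TC (list median 0.27). ANK3, an ankyrin that anchors L1 proteins, rose from 27.0 ± 1.13 to 499.5 ± 27.8 CPM (adjusted p = 5.79e-12) and NRP1, a semaphorin receptor, from 6.50 ± 2.21 to 47.3 ± 11.4 CPM (adjusted p = 2.86e-07). NRCAM and CHL1, relatives of L1CAM, fell by 2.95 (adjusted p = 9.20e-06) and 1.88 (adjusted p = 4.18e-08) in log2. Beside NES, 9 intermediate filament genes were tested, 2 higher and 6 lower (list median -0.33). The lamin gene LMNA rose by 0.92 (adjusted p = 3.18e-08), LMNB1 fell by 3.58 (adjusted p = 1.60e-10) and KRT18, a keratin, fell by 2.58 (adjusted p = 2.91e-09). The 3 tested aquaporins other than AQP1 were higher in TC and lower in RC than in PC, among them AQP11 (1.76 in TC, adjusted p = 0.00229) and AQP3 (0.89, adjusted p = 0.00440).

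**Figure D5:**
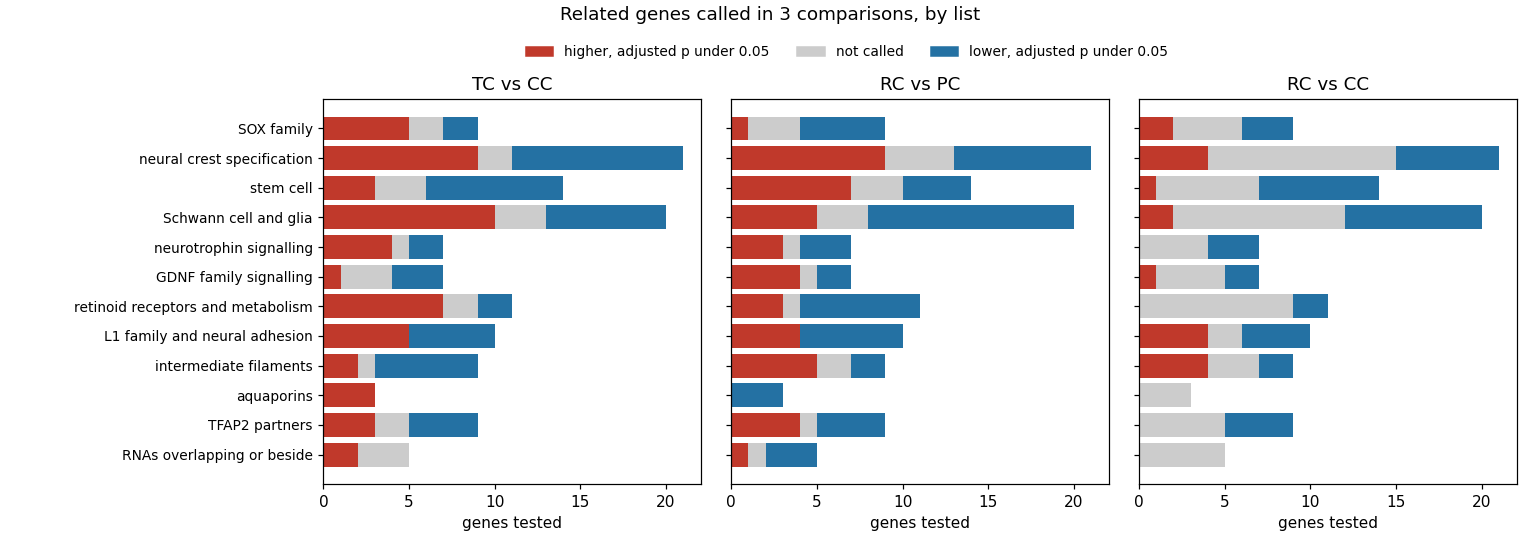
Number of tested genes called higher, lower or not called in 12 lists of related genes, for TC against CC, RC against PC and RC against CC. The stem cell list has 3 higher and 8 lower in TC against CC, and the aquaporin list has 3 higher in TC against CC and 3 lower in RC against PC.

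The 5 tested genes whose log2 CPM followed SOX2 most closely over the 12 libraries were SYNC (Pearson r = 0.997), OAZ2 (0.995), POP5 (0.994), COL16A1 (0.993) and ZBTB17 (0.992). These are descriptions over 12 libraries that fall into 4 treatment groups. SYNC was at 1.09 ± 0.27 CPM in CC, 34.5 ± 0.26 in TC, 53.0 ± 0.81 in PC and 6.91 ± 0.37 in RC. The other 4 followed the order of the groups with far smaller changes than SOX2. Their mean CPM in CC, TC, PC and RC was 93.1, 167, 167 and 124 for OAZ2 and 26.5, 57.8, 62.6 and 37.7 for POP5. It was 11.2, 39.0, 50.1 and 20.8 for COL16A1 and 48.7, 66.1, 66.9 and 55.2 for ZBTB17. Among the other genes of the set, r with SOX2 was 0.964 for NGFR, 0.904 for AQP1, 0.874 for SOX4, 0.870 for TFAP2A, 0.849 for L1CAM, 0.0982 for SOX9, -0.350 for NES and -0.933 for RXRG. GFRA2 gave 0.752, a value that rests on 0 to 7 reads in a library.

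Markers of melanoma cells were present in every group. Summed over 12 melanoma genes, the level was 3747 to 4954 CPM in CC, 9183 to 11978 CPM in TC, 4750 to 6326 CPM in PC and 3174 to 3359 CPM in RC, and 7 of 10 tested genes were higher and 2 lower in TC. DCT, a pigment enzyme gene, went from 407 ± 60.9 to 6452 ± 1317 CPM in TC (adjusted p = 5.55e-09), CSPG4 fell by 3.89 in log2 (adjusted p = 5.09e-09), and MIA and PRAME did not pass the filter. The 8 fibroblast genes summed to 51.4 to 66.3 CPM in CC, 80.4 to 105.9 CPM in TC, 37.0 to 48.4 CPM in PC and 46.6 to 50.6 CPM in RC, with 2 of 5 tested higher (FAP by 2.09 in log2) and 2 lower (LUM by 2.04) in TC. The 6 keratinocyte and epithelial genes summed to under 1 CPM in CC, TC and RC and to 2.09 to 2.66 CPM in PC, with 2 to 4 of the 6 at 0 in all 3 libraries of a group. Of these KRT14, a keratin of basal epithelium, was the 1 gene tested. It was higher than in CC by 4.46 in log2 in TC (adjusted p = 0.000449) and was also called higher in PC (adjusted p = 4.93e-06). In CC the 6 genes together reached only 0.106 to 0.384 CPM. The filter takes the mean over all libraries, so a gene near 0 in CC passes it through its level in other groups. The direction of both KRT14 calls thus follows in part from the filter. Its fold changes rest on low counts in CC, and nothing is read from them for the untested genes. The 7 leukocyte and endothelial genes summed to 4.19 to 5.80 CPM in CC and 1.90 to 2.38 CPM in TC, 1.80 to 2.08 CPM in PC and 3.74 to 4.21 CPM in RC, with 2 or 3 of the 7 at 0 in all 3 libraries of a group. The 2 tested, PTPRC of leukocytes and VWF of endothelium, fell by 3.55 (adjusted p = 0.000115) and 0.99 (adjusted p = 0.000456) in log2 in TC, and were lower than in CC in PC as well (adjusted p = 0.00294 and 7.19e-05). VWF was the 1 gene of the 7 with a mean of at least 1 CPM in each group. PTPRC was thus under 1 CPM throughout, and its fold changes rest on low counts. As for KRT14, the direction of the PTPRC calls may follow in part from the filter. The part of these marker genes in the results above was not tested.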

How the data were processed

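Cytoplasmic RNA of 12 A375 libraries was sequenced after rRNA depletion. The deposited values are raw read counts per gene, which the authors made, per the labels and the submitters' processing notes, with fastp 0.20.1, HISAT2 2.2.1 and HTSeq 0.13.5 on GRCh38.p13. Handling of strand and of multi-mapping reads is not given in the sources used here. Groups came from the sample titles, 3 libraries each. A quasi-likelihood test was run in edgeR 4.0.16 (R 4.3.3) on 15916 genes with a mean scaled count of at least 10, with TMM factors on library totals over all genes, 1 mean per group over all 12 libraries and Benjamini-Hochberg adjustment, called under 0.05. glmTreat gave calls beyond 1.5-fold. Standard errors are the log2 fold change divided by the root of F. DESeq2 1.42.0 was an alternative. CPM used all counts with TMM factors, and exon lengths (GENCODE v44) matched 27026 of 44659 genes. The genes and lists were chosen with earlier results of these data known. The lists name up to 2 largest rises and 2 largest falls in TC against CC, of genes called there with at least 1 CPM. The adjusted p-values of those genes in that comparison are thus under 0.05 by the rule. The edgeR test was tested on simulated counts for the comparison of TC with CC before use. Rank and correlation tables and the motif search were not.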

Additional observations from a re-analysis of the deposited data

How the results depend on the processing

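Leaving aside the 1.5-fold thresholds, across 12 or 14 alternatives a value (other normalizations, filters, tests, group pairs and each left-out library), 536 of 560 values of single genes kept their direction and side of the threshold, 15 were weaker, 4 stronger and 5 reversed. The 560 include TC against CC for every gene and SOX2 against CC or TC, which are descriptions with no test. Nothing is read from the side of the threshold on which those fell. The counts of genes called below include SOX2 in the same way. The 5 reversed values were near 0 and not called: SOX9 in PC against CC was below 0 without the first or the second CC library (range without 1 library -0.029 to 0.22, called at 0.22 without the third CC library), and L1CAM in RC against CC was 0.0094 with library totals and ran from -0.089 to 0.053 without 1 library, above 0 without the first CC or the third RC library. In TC against CC, a description with no test, the log2 fold change over the alternatives ran from 0.12 to 0.37 for SOX9 and from 0.25 to 0.60 for NES. In RC against CC the number of genes called was 5, 6 with only the 2 groups in the fit (TFAP2A gained), and 3 to 5 without 1 library, with 3 without the second RC library; it was 2 with either 1.5-fold threshold. In PC against TC it was 6, 5 with a filter of at least 2 summed counts (NGFR lost, adjusted p = 0.0581), and 1 with either 1.5-fold threshold; changes beyond 1.5-fold numbered 1, 2 with library totals, and 1 to 2 without 1 library, with 2 without the first or the third TC library. With the replicate block, the number called was 5 in PC against TC, where NGFR lost its call (adjusted p = 0.0638), and no other call of these genes changed. Deviations of same-numbered libraries from their group means correlated weakly (r from -0.0347 to 0.131 over 18 pairs). The 2 pairs over 0.1 were TC with PC, at 0.131 for replicate 1 and 0.101 for replicate 3. Of the 12 libraries, 8 correlated best with a library of their own number in another group. The cause of these changes was not tested. AQP1 and SOX2 in CC rest on few reads, which limits their fold changes.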
